A study of Mus musculus with 6 samples.

Results

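The insulin-like growth factor (IGF) family was described here in the CD45-negative cells of YUMM1.7 melanomas. It was taken as 10 gene symbols, 2 ligands, 2 receptors and 6 binding proteins, all found among the 23940 symbols measured. YUMM1.7 is a mouse melanoma line with an activating Braf mutation, grown as tumours in C57BL/6 mice. RNA was sequenced from cells without CD45, the leukocyte surface marker encoded by Ptprc, sorted from 3 tumours before treatment (the pre-treatment group, with no MAPK pathway inhibitor) and 3 residual tumours on a BRAF inhibitor (the on-BRAFi group). Which inhibitor was used, at what dose and for how long, and how old the mice were, the labels do not state. Tumours carry a number within their group, with no word on whether each grew in its own mouse, so a p-value here reflects variation among tumours that may share a source. All tumours came from 1 cell line, and host cells of the CD45-negative fraction were sequenced together with the tumour cells. In such a mix, a change in the number of cells of a type and a change in RNA per cell cannot be told apart.

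IGF1 and IGF2 are small secreted hormones that resemble insulin. Both activate IGF1R, a receptor tyrosine kinase that signals through the IRS adaptors to PI3K and AKT, whereas IGF2R, the cation-independent mannose 6-phosphate receptor, takes IGF2 to the lysosome. Secreted binding proteins hold the ligands outside the cell and are cut by proteases that set the ligands free; in tissues, fibroblasts and other stromal cells are known sources of IGF1.

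Values are FPKM, a level per transcript length and library size. Of the 10 members, 8 reached a mean of 1 FPKM over the 6 libraries and were tested among 12075 genes with limma on log2(FPKM + 0.1), with Benjamini-Hochberg adjustment and a threshold of 0.05. Of these 8, Igf1 and Igfbp5 rose, Igfbp3 fell and 5 did not pass. Over all tested genes 19.1% passed, 8.76% higher and 10.3% lower on the inhibitor. The groups did not overlap for 4 of the 8 tested members, the 3 that passed and Igf2r, against 40.4% of all tested genes. Igf1 and Igfbp5 lay above, as did 20.9% of all tested genes, and Igf2r and Igfbp3 below, as did 19.5%. Igf2, below 1 FPKM in 5 of the 6 libraries, and Igfbp2, listed at 0 in all 6, were not tested. The total FPKM of a library was 562041 to 921297 before treatment and 414834 to 554684 on the inhibitor, without overlap. When each library was rescaled to the same total, the median log2 fold change of all genes moved up by 0.53 and 2009 genes were higher and 518 lower, against 1058 and 1249 as deposited. Directions are therefore relative to the deposited scaling.

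Since Igf1, Igfbp5 and Igfbp3 are the members that moved, the 250 bases before 1 transcription start of each, as RefSeq lists them on build GRCm38.p6, are shown 5′ to 3′ on the strand of the gene. They are chr10:87860861-87861110 (plus strand), chr1:72874866-72875115 (minus strand) and chr11:7213924-7214173 (minus strand). The expression values were made on mm9, so the 2 were joined by symbol only. Capitals mark matches to the motifs searched.
Igf1: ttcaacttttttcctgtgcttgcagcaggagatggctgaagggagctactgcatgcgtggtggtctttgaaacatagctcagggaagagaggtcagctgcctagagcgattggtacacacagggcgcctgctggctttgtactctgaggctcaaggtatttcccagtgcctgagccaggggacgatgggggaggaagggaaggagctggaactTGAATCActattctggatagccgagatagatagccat
Igfbp5: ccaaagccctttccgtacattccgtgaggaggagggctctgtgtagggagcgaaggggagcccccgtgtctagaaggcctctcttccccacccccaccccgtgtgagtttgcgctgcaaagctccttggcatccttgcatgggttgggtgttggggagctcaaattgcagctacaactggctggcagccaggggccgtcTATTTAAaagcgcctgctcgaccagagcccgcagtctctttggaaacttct
Igfbp3: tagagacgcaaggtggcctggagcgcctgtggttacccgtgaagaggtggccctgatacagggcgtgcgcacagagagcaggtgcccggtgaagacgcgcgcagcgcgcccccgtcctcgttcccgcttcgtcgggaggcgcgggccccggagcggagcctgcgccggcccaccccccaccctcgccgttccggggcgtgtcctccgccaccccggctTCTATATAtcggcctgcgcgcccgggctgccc

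The motifs were chosen with the sequences in view and searched on both strands: the AP-1 site TGANTCA, the FOXO core TGTTTAC, the GC box GGGCGG, the TATA element TATANA and its variant TATTTAA. The Igf1 window held 1 match to this relaxed string, TGAATCA, 31 to 37 bases before the start. Of 32851 promoter windows of the same length, 6.75% held a match to it. The Igfbp5 window held TATTTAA 45 to 51 bases before the start, found in 4.18% of windows. The Igfbp3 window held overlapping TATANA matches 25 to 32 bases before the start, found in 22.6% of windows. The FOXO core was in none of the 14 windows listed for the 10 members and in 3.17% of all windows, and the GC box was in 6 of the 14 and in 32.7% of all. The AP-1 site was in 2 of the 14, of Igf1 and of Igfbp2, which was listed at 0 FPKM. TATANA was in 3 of the 14, of Igfbp3, Igfbp4 and Igfbp6, and TATTTAA in 1. The TATANA match of Igfbp4 lay 23 to 28 bases before the start, and those of Igfbp6 lay farther away, at 141 to 148 bases. A match describes letters only.

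**Figure D1:**
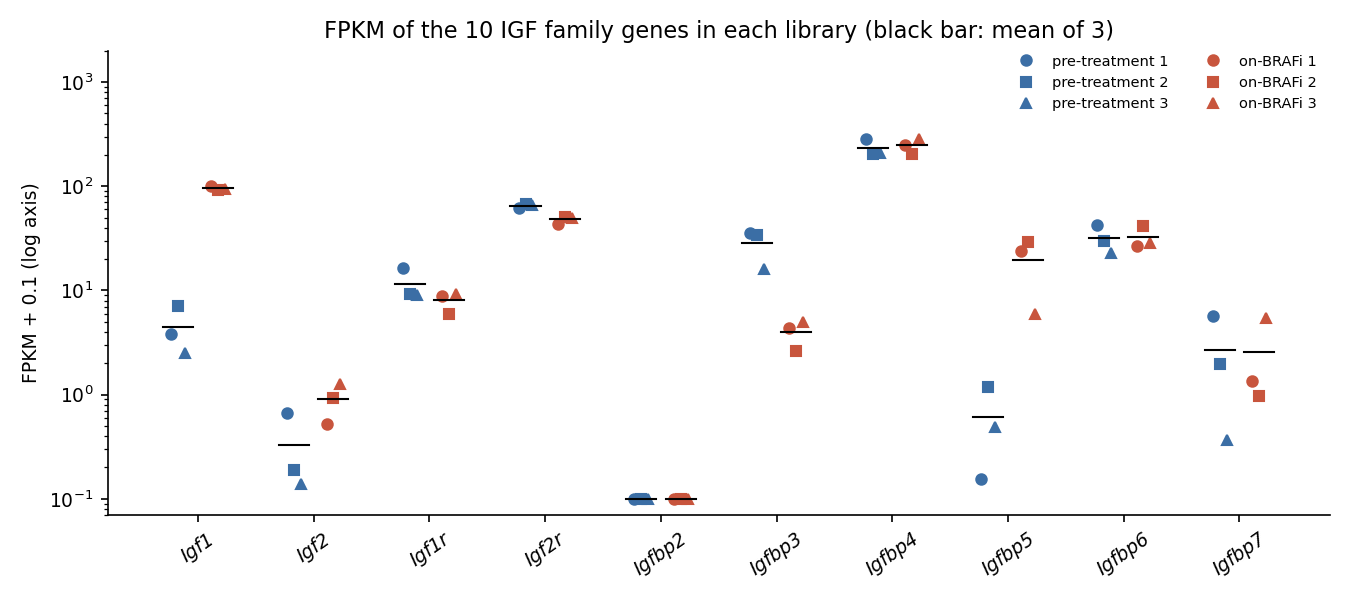
FPKM + 0.1 on a log axis for the 10 IGF family genes, with 1 point per library (blue, 3 pre-treatment; red, 3 on-BRAFi; the symbol gives the tumour number) and black bars at the means. Igf1 and Igfbp5 lie higher and Igfbp3 lower in all 3 on-BRAFi libraries, Igfbp4 is the most abundant member in each library, and Igfbp2 is listed at 0 throughout.

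Igf1 was the more abundant ligand, and it rose on the inhibitor. Igf1 stood at 3.69, 7.03 and 2.42 FPKM in pre-treatment tumours 1 to 3 and at 101, 93.1 and 94.4 FPKM in on-BRAFi tumours 1 to 3. The treated libraries lay close together and far above the highest untreated one. The mean went from 4.38 ± 2.38 to 96.2 ± 4.35 FPKM (SD, n = 3 each), a 23.6-fold rise in the fit, or a log2 fold change of 4.56 ± 0.36 (SE; 95% interval from 3.70 to 5.42; limma, adjusted p = 0.000959). By mean level Igf1 moved from the sixth place among the members to the second, behind Igfbp4. Igf1 passed whichever library was left out, with log2 fold changes from 4.21 to 4.96.

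Igf2, the fetal growth factor of an imprinted locus, was at 0.561, 0.0894 and 0.0403 FPKM before treatment and at 0.425, 0.830 and 1.17 FPKM on the inhibitor. The groups overlapped, and all 6 values are low. Without the filter on low values its log2 fold change was 1.71, with a 95% interval from -0.028 to 3.45, and it did not pass (limma, adjusted p = 0.189). H19, the non-coding RNA of the same imprinted domain, was at 1.58 ± 1.10 and 3.75 ± 1.94 FPKM (SD, n = 3 each) and did not pass either. In every library the Igf1 level exceeded that of Igf2, by 6.59 to 78.6 times before treatment and by 80.9 to 238 times on the inhibitor.

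Neither receptor gene passed. Igf1r stood at 16.3, 9.16 and 9.02 FPKM in the pre-treatment tumours and at 8.81, 5.83 and 9.24 FPKM in the on-BRAFi tumours. The groups overlapped, and pre-treatment tumour 1 was the highest. The log2 fold change was -0.50 with a 95% interval from -1.23 to 0.24 (limma, adjusted p = 0.305), so a fall by more than 1.23 on the log2 scale lies outside that interval. Within a library, which sets the scaling aside, the Igf1 level divided by the Igf1r level was 0.226, 0.767 and 0.269 before treatment and 11.5, 16.0 and 10.2 on the inhibitor. That ratio separated the groups, and an exact two-sided permutation test gave p = 0.1, the smallest that 3 against 3 libraries can give. Igf1 differed between the groups by far more than Igf1r varied over all libraries, so this ratio had to separate them. Its p-value therefore adds nothing to the call of Igf1.

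Igf2r was the more abundant receptor, at 61.4, 66.8 and 66.4 FPKM before treatment and 43.0, 51.1 and 50.03 FPKM on the inhibitor. All 3 treated libraries lay below the untreated ones, yet the change of -0.44 ± 0.15 on the log2 scale (SE) did not pass (limma, adjusted p = 0.0939). It passed with array weights (adjusted p = 0.0453), and its sign turned after rescaling to equal library totals, where the log2 fold change was 0.11; that of Igf1r became 0.045. The adjusted p of Igf2r ran from 0.0453 to 0.806 over the alternatives and the libraries left out. Igf2r is overlapped on the other strand by Airn, the imprinted non-coding RNA that silences the paternal Igf2r copy, and the library kit does not mark strand, so reads in the shared stretch cannot be told apart. Airn was at 43.6 ± 8.31 and 55.9 ± 7.70 FPKM (SD, n = 3 each), a log2 fold change of 0.36 that did not pass. The level of Airn divided by that of Igf2r was 0.604 to 0.7995 before treatment and 0.941 to 1.42 on the inhibitor (exact two-sided permutation test, p = 0.1). The level of Igf2r was 3.76 to 7.36 times that of Igf1r before treatment and 4.87 to 8.78 times on the inhibitor, with overlapping groups.

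**Figure D2:**
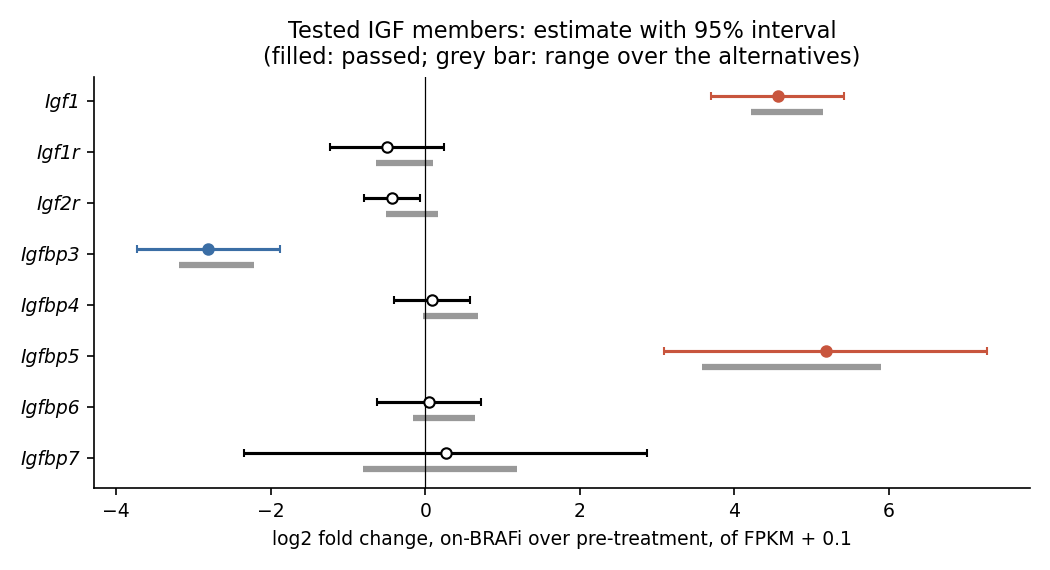
Log2 fold change of FPKM + 0.1, on-BRAFi over pre-treatment, of the 8 tested members with 95% intervals (red, higher; blue, lower; open, not passed); grey bars give the range of the estimate over the alternatives and the libraries left out. Igf1, Igfbp5 and Igfbp3 keep their sign over these ranges, whereas those of the receptors and of Igfbp4, Igfbp6 and Igfbp7 cross 0.

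Among the binding proteins, Igfbp5 rose and Igfbp3 fell while the most abundant, Igfbp4, did not pass. Igfbp5, the most conserved binding protein and one that attaches to extracellular matrix, was at 0.0539, 1.08 and 0.385 FPKM before treatment and at 23.8, 29.1 and 5.91 FPKM on the inhibitor. The groups did not overlap, and on-BRAFi tumour 3 was the lowest of its group. The log2 fold change was 5.18 ± 0.88 (SE; 95% interval from 3.09 to 7.27; limma, adjusted p = 0.00944). Since its pre-treatment mean was 0.507 FPKM, Igfbp5 reached the filter through the treated libraries, and the size depends on the pseudocount: it was 3.58 with 1 FPKM added and 5.73 with 0.01. It was 4.41 without pre-treatment tumour 1, 5.88 without pre-treatment tumour 2 and 5.89 without on-BRAFi tumour 3, and it passed whichever library was left out (adjusted p up to 0.0448).

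Igfbp3, the main carrier of IGF in blood and one that can restrain growth independently of the receptor, stood at 35.8, 34.2 and 16.0 FPKM before treatment. On the inhibitor Igfbp3 was at 4.296, 2.55 and 4.87 FPKM. Pre-treatment tumour 3 was well below the other untreated tumours, and all treated libraries lay below it. The mean went from 28.6 ± 10.99 to 3.90 ± 1.21 FPKM (SD, n = 3 each), a log2 fold change of -2.81 ± 0.39 (SE; 95% interval from -3.73 to -1.88; limma, adjusted p = 0.00456). It passed in every alternative and whichever library was left out, with log2 fold changes from -3.18 to -2.22. The level of Igfbp5 divided by that of Igfbp3 in the same library was 0.00151 to 0.0317 before treatment and 1.21 to 11.4 on the inhibitor, so the order of these genes turned in all 3 treated tumours (exact two-sided permutation test, p = 0.1). Since neither gene overlapped between the groups and they moved in opposite directions, this ratio had to separate the groups. Its p-value therefore adds nothing to their calls.

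Igfbp4, a binding protein that holds IGF back until the protease PAPP-A cuts it, was the highest member in every library. Its levels were 282, 205 and 210.5 FPKM before treatment and 247, 205 and 287 FPKM on the inhibitor. The groups overlapped almost fully, with a log2 fold change of 0.086 and a 95% interval from -0.41 to 0.58 (limma, adjusted p = 0.802). Of the alternatives, only equal library totals with short RNAs removed brought Igfbp4 past the threshold (log2 fold change 0.68, adjusted p = 0.0352), in a range of adjusted p up to 0.994.

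Igfbp6, which binds IGF2 more tightly than IGF1, was at 42.1, 29.8 and 22.6 FPKM before treatment and 26.9, 41.3 and 28.6 FPKM on the inhibitor. These groups overlapped too, with a log2 fold change of 0.055 and a 95% interval from -0.62 to 0.73 (limma, adjusted p = 0.915). Igfbp7, which binds IGF weakly and is found around blood vessels, was at 5.64, 1.86 and 0.266 FPKM before treatment and 1.25, 0.868 and 5.33 FPKM on the inhibitor. Its values were as far apart among the untreated tumours as between any of the 6, and its 95% interval ran from -2.35 to 2.87 around a log2 fold change of 0.26 (limma, adjusted p = 0.892). Polr2b, a subunit gene of RNA polymerase II listed at up to 32.6 FPKM, overlaps Igfbp7 in RefSeq, so without strand the reads of any shared stretch cannot be told apart. Igfbp2 is next to Igfbp5 on chromosome 1 and was listed at 0 in all 6 libraries. Igfbp1, the neighbour of Igfbp3 on chromosome 11 and no member, was listed at 0 in 5 libraries and at 0.0889 FPKM in pre-treatment tumour 3.

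The order of the levels changed below Igfbp4. Before treatment Igf2r, Igfbp6 and Igfbp3 came next, at 64.9 ± 3.01, 31.5 ± 9.85 and 28.6 ± 10.99 FPKM (SD, n = 3), and Igfbp6 and Igfbp3 overlapped. On the inhibitor Igf1, Igf2r and Igfbp6 came next, at 96.2 ± 4.35, 48.0 ± 4.44 and 32.3 ± 7.91 FPKM, with no overlap between neighbours. Igfbp5, at 19.6 ± 12.1 FPKM, overlapped Igfbp6 above it and Igf1r below it, and Igfbp3 overlapped Igfbp7.

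As a share of the summed FPKM of the 6 binding protein genes, which does not depend on the scaling between libraries, Igfbp4 took 77.1%, 75.4% and 84.3% before treatment and 81.5%, 73.5% and 86.5% on the inhibitor. Its share overlapped between the groups. The sum itself was 250 to 365 FPKM before treatment and 279 to 332 FPKM on the inhibitor, also overlapping. Igfbp3 took 9.78%, 12.6% and 6.40% before treatment and 1.42%, 0.913% and 1.47% on the inhibitor. The share of Igfbp5 went the other way, from 0.0147%, 0.398% and 0.154% to 7.84%, 10.4% and 1.78%. Igfbp6 took 9.05% to 11.5% and then 8.61% to 14.8%. Between the groups the shares of Igfbp3 and Igfbp5 did not overlap, and those of Igfbp4 and Igfbp6 did.

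**Figure D3:**
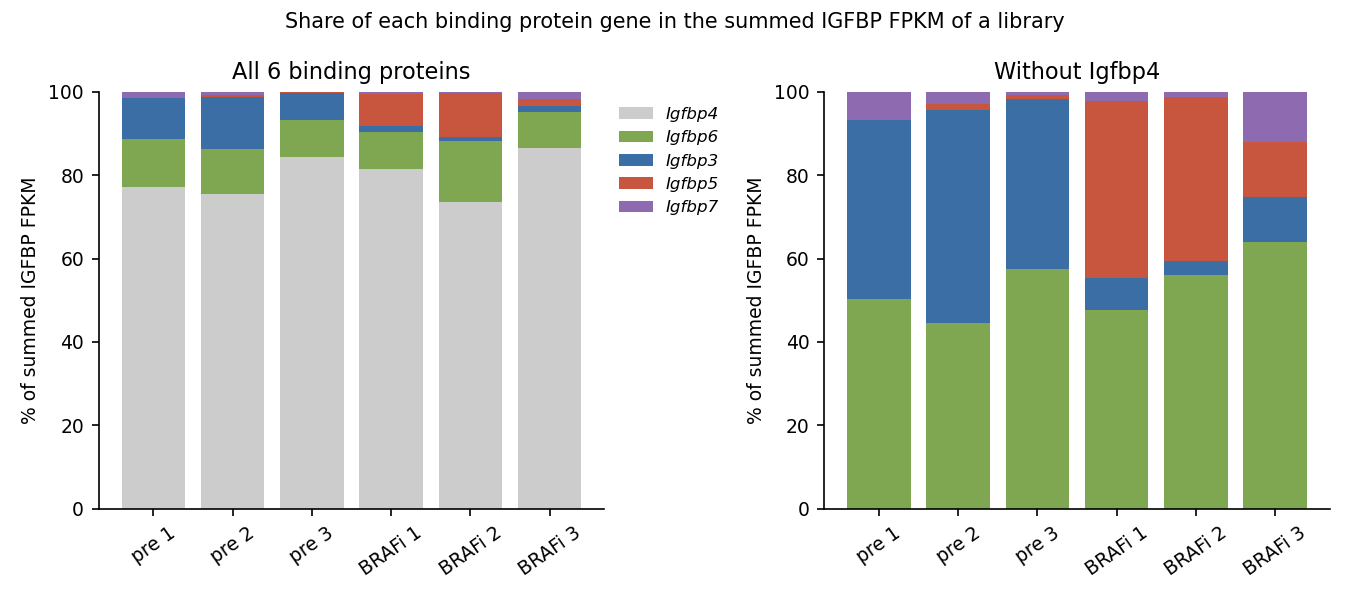
Share of each binding protein gene in the summed IGFBP FPKM of each library, in percent, over all 6 genes (left) and without Igfbp4 (right); Igfbp2, at 0, is not visible. Without Igfbp4, Igfbp3 takes 40.7% to 51.1% of the sum in the pre-treatment libraries and 3.45% to 10.9% in the on-BRAFi libraries, and Igfbp5 takes 0.0645% to 1.62% and then 13.2% to 42.3%.

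Beyond the family, 34 genes in 4 lists described the rest of the axis. Of the 22 that were tested, 5 rose, 1 fell and 16 did not pass, with a median log2 fold change of 0.45 against -0.0063 over all tested genes, of which 8.76% were called higher and 10.3% lower. Of 7 other IGF family genes, the insulin receptor gene Insr was the only one tested, and the other 6 stayed below 1 FPKM in every library. Insr, whose product can pair with IGF1R, was at 9.25, 7.60 and 12.6 FPKM before treatment and 14.1, 12.7 and 11.1 FPKM on the inhibitor, with overlapping groups and a log2 fold change of 0.39 (limma, adjusted p = 0.292).

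Of the 7 genes for proteases that cut the binding proteins and for inhibitors of those proteases, 5 were tested; 1 rose, 1 fell and their median log2 fold change was 1.502. Htra1, a secreted serine protease that cuts IGFBP5, rose from 28.7, 26.4 and 17.8 FPKM to 56.2, 58.9 and 93.2 FPKM, 2.83-fold (limma, adjusted p = 0.0123). The groups did not overlap, and Htra1 passed whichever library was left out. Stc1, which encodes stanniocalcin 1, an inhibitor of PAPP-A, fell from 3.63, 3.18 and 1.59 FPKM to 0.642, 0.607 and 0.381 FPKM, a log2 fold change of -2.12 ± 0.50 (SE; limma, adjusted p = 0.0282). Since its on-BRAFi mean was 0.543 FPKM, Stc1 reached the filter on low values through the untreated libraries. It missed the threshold without pre-treatment tumour 1 or 2 or any 1 of the on-BRAFi tumours (adjusted p up to 0.124). Pappa, which encodes PAPP-A itself, was at 0.348 ± 0.213 and 1.94 ± 0.840 FPKM (SD, n = 3 each) and did not pass (limma, adjusted p = 0.0652). Its relative Pappa2 was at 1.12 ± 0.736 and 3.19 ± 0.320 FPKM and the inhibitor gene Stc2 at 0.732 ± 0.400 and 1.99 ± 0.357 FPKM, and neither passed. The treated libraries lay above the untreated ones for Pappa, Pappa2 and Stc2, as for 20.9% of all tested genes, and Pappa and Stc2 reached the filter through the treated libraries.

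Of the 16 signalling genes below IGF1R, 14 were tested; 4 rose, none fell and the median log2 fold change was 0.41, beside 8.76% higher, 10.3% lower and a median of -0.0063 over all tested genes. Irs1, the adaptor that docks on the active receptor, rose from 2.83, 2.38 and 2.83 FPKM to 5.70, 8.67 and 8.05 FPKM, 2.69-fold (limma, adjusted p = 0.00970). All treated libraries lay above the untreated ones. Pik3r1, the main regulatory subunit of PI3K, rose from 22.7 ± 1.82 to 45.6 ± 7.11 FPKM (SD, n = 3 each; limma, adjusted p = 0.0113). Akt2, the AKT kinase best known from insulin action, rose 1.81-fold (adjusted p = 0.0160). Grb14, an adaptor that inhibits the insulin receptor, was low and rose from 1.51 ± 0.582 to 3.92 ± 0.792 FPKM (adjusted p = 0.0424). Irs1 and Pik3r1 passed whichever library was left out. Akt2 missed the threshold without pre-treatment tumour 2 or 3 or on-BRAFi tumour 1 or 3 (limma, adjusted p up to 0.0548), and Grb14 without pre-treatment tumour 1 or 3 or any 1 of the on-BRAFi tumours (up to 0.144). Without pre-treatment tumour 3 or on-BRAFi tumour 1, 3 of the 34 axis genes rose in place of 5.

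The other signalling genes did not pass. Irs2, the second adaptor, was at 5.81, 2.87 and 0.798 FPKM before treatment and 1.27, 0.320 and 2.63 FPKM on the inhibitor, with overlapping groups. Akt1, the most widely expressed AKT kinase, had a log2 fold change of -0.58, and its sign turned with equal library totals and short RNAs removed, to 0.015. Pik3cb, a catalytic subunit of PI3K, was at 1.93 ± 0.953 and 0.347 ± 0.205 FPKM (SD, n = 3 each; limma, adjusted p = 0.0662). Its treated libraries lay below the untreated ones, as for 19.5% of all tested genes. Pik3cb reached the filter through the untreated libraries and passed in 4 of the 10 alternatives that tested it. Of the genes tied to Igf2 RNA, Igf2bp2, an mRNA-binding protein, measured 8.86 ± 4.65 and 3.94 ± 0.796 FPKM without passing, and Igf2bp1 and Igf2bp3 were below the filter.

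**Figure D4:**
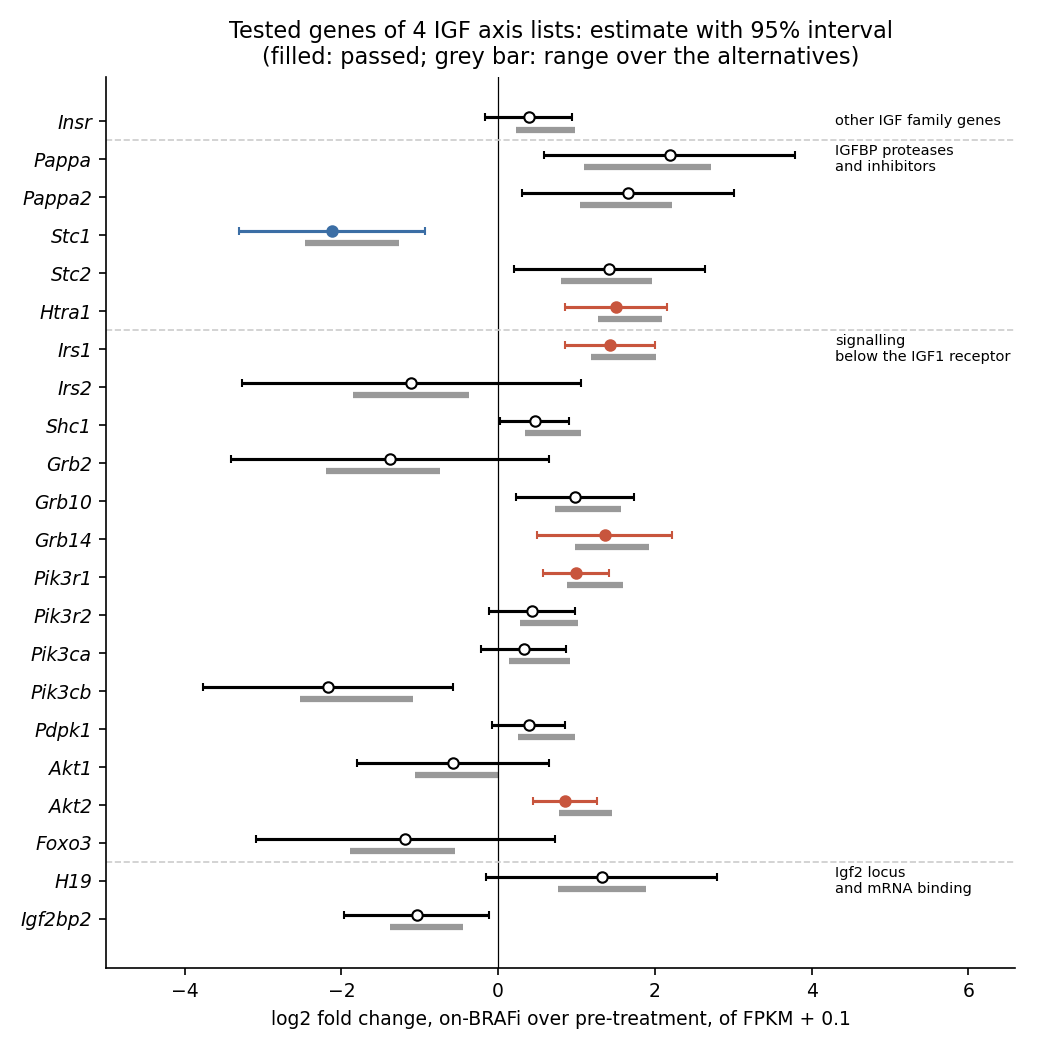
Log2 fold change of FPKM + 0.1, on-BRAFi over pre-treatment, of the 22 tested genes in 4 IGF axis lists with 95% intervals (red, higher; blue, lower; open, not passed); grey bars give the range over the alternatives and the libraries left out. Htra1, Irs1, Grb14, Pik3r1 and Akt2 are higher and Stc1 is lower, while Irs2, Grb2 and Foxo3 have wide intervals that include 0.

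Markers of other cell types moved with Igf1 and Igfbp5. Of 10 fibroblast markers, 6 rose and 4 did not pass, and their summed level was 1236 to 1762 FPKM before treatment and 9172 to 9903 FPKM on the inhibitor. Dpt, dermatopontin, rose from 12.0 to 14.6 FPKM up to 433 to 569 FPKM, while Pdgfra and Fap, fibroblast surface proteins, had log2 fold changes of 0.22 and 0.0084 and did not pass. Divided by the Pdgfra level of the same library, the Igf1 level was 0.0159 to 0.0464 before treatment and 0.567 to 0.688 on the inhibitor; divided by the level of Col3a1, a fibrillar collagen, it was 0.00373 to 0.0152 and 0.0193 to 0.0213. These comparison genes were picked with their values seen, and neither ratio overlapped between the groups. Both genes had smaller fold changes in the fit than Igf1, 1.16 for Pdgfra and 9.07 for Col3a1 against 23.6. Dpt, of the same marker list, rose 38.9-fold, more than Igf1. Of 8 endothelial markers 7 rose, with sums of 18.9 to 29.2 and 68.3 to 117 FPKM. Of 6 tested pericyte and smooth muscle markers 3 rose and 1 fell, with sums of 60.7 to 69.8 and 97.7 to 140 FPKM. Over all tested genes 8.76% were called higher and 10.3% lower. Among the risen markers, Tek, Notch3 and Tagln had pre-treatment means of 0.543, 0.532 and 0.854 FPKM. They reached the filter through the treated libraries. The part of these cell types in the IGF values was not tested.

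**Figure D5:**
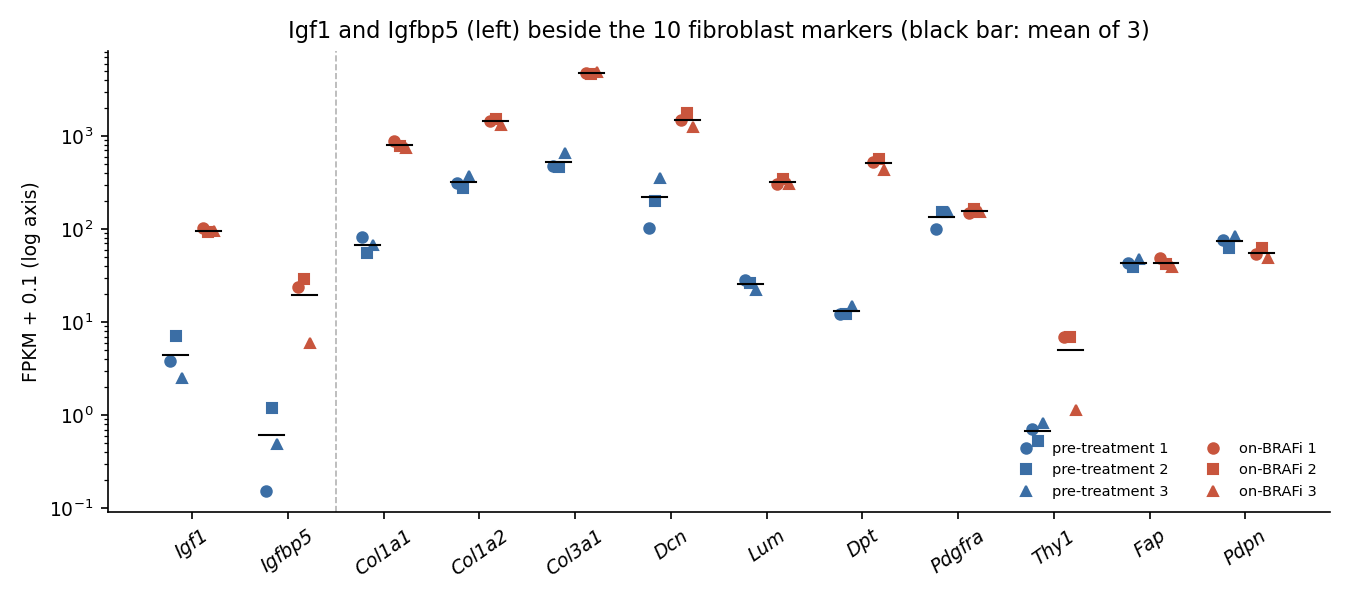
FPKM + 0.1 on a log axis of Igf1 and Igfbp5 and, right of the dashed line, of 10 fibroblast markers, with 1 point per library and black bars at the means of 3. Igf1, Igfbp5, the collagens, Dcn, Lum and Dpt are higher in all 3 on-BRAFi libraries, Pdgfra, Fap and Pdpn are not, and on-BRAFi tumour 3 is low for Igfbp5 and Thy1.

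Thy1, another fibroblast surface marker, was at 6.75, 6.89 and 1.05 FPKM in on-BRAFi tumours 1 to 3, so tumour 3 was low there as for Igfbp5. Of 5 adipocyte markers Fabp4, known also from capillary endothelium, and Lpl rose, while Adipoq, Plin1 and Cidec stayed under 1 FPKM in every library. Lpl, at a mean of 0.552 FPKM before treatment, reached the filter through the treated libraries. Leukocyte markers summed to 25.8 to 29.2 FPKM before treatment and 18.8 to 38.6 FPKM on the inhibitor, overlapping, with Ptprc at 0.118 to 2.18 FPKM over the 6 libraries. Of 8 melanocyte lineage markers, Tyrp1, Dct and Mlana were listed at 0 in all libraries and Sox10 and Pmel stayed under 1 FPKM, so 5 of the 8 defining markers of the labelled tumour type were listed at 0 or under 1 FPKM throughout. Tyr, tyrosinase, was at 3.02 to 5.99 FPKM over the 6 libraries and did not pass; Mitf, the lineage transcription factor, rose from 4.43 to 7.23 FPKM up to 19.3 to 23.6 FPKM. All 4 keratinocyte markers stayed under 1 FPKM, and of 4 skeletal muscle markers 1 was tested and did not pass.

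The genes whose 6 centred log2 values lay closest to those of each changed member were picked by root mean square difference among 7124 tested genes with a mean of at least 5 FPKM, leaving out predicted genes (Gm and Rik symbols), microRNA and small nucleolar RNA symbols and ribosomal pseudogenes. For Igf1 they were Ccdc80, a secreted matrix protein gene, Postn, which encodes periostin, and Creb3l1, a transcription factor gene of collagen-secreting cells, at differences of 0.285, 0.340 and 0.365. Ccdc80 was at 6.90, 7.82 and 4.65 FPKM and then at 149, 136 and 185 FPKM. For Igfbp5 they were Pamr1, Gpx3 and Rassf2, at 0.722, 0.882 and 0.910; Gpx3, a secreted glutathione peroxidase, was like Igfbp5 lowest in on-BRAFi tumour 3 of its group, at 73.3, 63.7 and 20.3 FPKM. For Igfbp3 they were Hspe1, a mitochondrial chaperonin gene, Dbf4, an activator of the replication kinase CDC7, and Rpl5, a ribosomal protein gene, at 0.309, 0.358 and 0.363. Hspe1 was at 298, 205 and 155 FPKM before treatment and 34.8, 31.3 and 35.8 FPKM on the inhibitor. Creb3l1, Pamr1, Gpx3 and Rassf2 had pre-treatment means of 0.641, 0.407, 1.49 and 0.596 FPKM and reached the filter through the treated libraries. Dbf4, with an on-BRAFi mean of 2.20 FPKM, reached it through the untreated ones. The centred values include the step between the groups on which the members were called, so likeness adds no support to the calls.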

How the data were processed

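RNA of sorted CD45-negative cells was measured in 6 libraries, 3 per group. Per the labels' protocols, RNA was extracted with a micro-scale QIAGEN RNeasy kit and selected by poly(A) for TruSeq libraries that keep no strand; the series text calls the reads single-end and the library protocol paired-end. The authors deposited 1 table of FPKM values, with a row per gene. mm9, TopHat2, TopHat, Cuffnorm and Cuffdiff are named, per the submitters' processing notes; no source used here gives the annotation or says how libraries were scaled. Some non-zero FPKM values are far too small to be 1 read, so the depth is unknown, no counting interval is given, and a 0 is reported as listed at 0.

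Genes with a mean of at least 1 FPKM were tested (12075 of 23940) with limma 3.58.1 in R 4.3.3 on log2(FPKM + 0.1), with an intensity trend, two-sided, adjusted by Benjamini-Hochberg over all genes tested, at a threshold of 0.05. Fold changes are on that scale and understate low genes. The fit was tested on simulated data. A list is described by its counts and median; no set test was run. The rule for named genes was all members, axis genes past the threshold and, for likeness, 3 genes per changed member; other genes were named with their values seen. In the signalling list 2 genes are not reported here, and its counts and medians leave them out. Members and lists were chosen with earlier results of these data known. Alternatives were pseudocounts of 1 and 0.01, other filters, scalings and limma settings, the tumour number as a block, and each library left out. Promoter sequences are from RefSeq (GRCm38.p6), which held all 10 members.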

Additional observations from a re-analysis of the deposited data

How the results depend on the processing

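Igf1, Igfbp5 and Igfbp3 kept their direction and their call in all 11 alternatives and with each of the 6 libraries left out. The number of members lower was 1 as reported and 2 with array weights, where Igf2r also passed, and 2 members were higher in all but 1 setting. With equal library totals, the log2 fold changes of Igf1r and Igf2r became 0.045 and 0.11, and without short RNAs 0.094 and 0.16. Akt1 became 0.015 with equal totals without short RNAs. With single libraries left out, Igfbp4 ran from -0.030 to 0.23, Igfbp6 from -0.16 to 0.29 and Igfbp7 from -0.80 to 1.18.

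Of the axis genes, 5 were higher as reported, 11 with equal library totals, 15 without short RNAs, 8 with array weights and 2 with the tumour number as a block, and 3 to 4 with a library left out. As to lower axis genes, 1 as reported stood against 2 with a pseudocount of 0.01, after quantile normalization, without a trend and with array weights. None was lower with a mean of at least 5 FPKM, with equal library totals or with the block, and 0 to 1 with a library left out. Over all genes, 1058 were higher and 1249 lower; these became 2009 and 518 after rescaling, 3789 and 682 without short RNAs, and 500 and 737 with the block. With a library left out, 498 to 801 were higher and 732 to 943 lower. The higher count was under the reported one by more than 1.5 times without pre-treatment tumour 2 (674) or on-BRAFi tumour 1 (498), 2 (581) or 3 (704), and the lower count without pre-treatment tumour 1 (822) or on-BRAFi tumour 1 (732). The causes were not tested.

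Same-numbered tumours had correlations of -0.0296, 0.0116 and -0.0896 between their deviations from the group means. These give no sign that the numbers pair the samples, but 3 libraries per group cannot exclude it. With the number as a block, Htra1, Stc1, Grb14, Pik3r1 and Akt2 missed the threshold (limma, adjusted p = 0.0542, 0.0675, 0.122, 0.0518 and 0.0675) and Grb10 passed. Summed without Igfbp4, the mean shares before treatment and on the inhibitor were 44.9% and 7.33% for Igfbp3, 0.889% and 31.7% for Igfbp5, 50.8% and 55.9% for Igfbp6, and 3.40% and 5.11% for Igfbp7. The number of libraries and the unknown depth limit the low members, Igf2, Igfbp7 and Igfbp5 before treatment.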

Other observations

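Some members and signalling genes varied in the same order among the libraries. Igf1r, Igfbp3 and Igfbp7 were highest in pre-treatment tumour 1, next in tumour 2 and lowest in tumour 3, and lowest in tumour 2 among the on-BRAFi libraries. Irs2, Grb2, Pik3r2, Akt1 and Foxo3 had that same order, 5 of the 14 tested signalling genes, against 12.5% of all tested genes. Foxo3, a transcription factor restrained by AKT, was at 11.3, 4.99 and 1.68 FPKM before treatment and 2.55, 0.754 and 3.77 FPKM on the inhibitor. Grb2, the adaptor that links receptors to RAS, was at 9.45, 4.996 and 1.18 FPKM and then 2.17, 0.522 and 2.38 FPKM. This order was noticed in the values of these genes, so setting its share against all tested genes is no test of it. Some steps were small, such as 9.16 against 9.02 FPKM for Igf1r in pre-treatment tumours 2 and 3. No cause was tested.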
